A study of Mus musculus with 9 samples.

Results

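The interferon regulatory factors (IRFs) measured in murine Tc17 cells, IL-17-producing CD8+ T cells differentiated in vitro, were examined as a gene family: Irf1, Irf2, Irf3, Irf4, Irf5, Irf7, Irf8 and Irf9, 8 genes of the 41388 in the expression table, each found by its gene symbol. Irf8 and Irf4 were selected on their values in these libraries, so their values are given as a description without a test, whereas the other 6 members entered by name as the rest of the family and not for their own values. All 8 passed the filter on low values, a mean normalized count of at least 10 over the 9 libraries. Naive CD62L+CD44-CD8+ T cells from lymph node and spleen of sex- and age-matched C57BL/6 mice were cultured for 2 days on plate-bound anti-CD3 (5 µg/ml) with anti-CD28 (0.5 µg/ml), IL-2 (50 U/ml), TGF-β (0.5 ng/ml), IL-6 (30 ng/ml) and anti-IFN-γ (5 µg/ml), which all groups shared. The 3 groups of 3 libraries each were the solvent control with 0.2% DMSO (Ctrl), 20 µM dimethyl fumarate (DMF), and 20 µM DMF with 50 µM glutathione (DMF + GSH). All cells had thus been kept under antibody blockade of IFN-γ, and the labels do not say whether the DMF-treated cultures also held DMSO. The comparisons ask what DMF, an electrophilic drug used in multiple sclerosis and psoriasis, does to these mRNAs and whether glutathione, the thiol that scavenges such compounds, prevents it.

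IRFs are transcription factors that share a DNA-binding domain for GAAA-type motifs and differ in what calls them into action. IRF4 and IRF8 are the lymphoid and myeloid members: antigen receptor signalling induces IRF4 in T cells, and both bind weakly alone and act with partners such as BATF-JUN dimers or PU.1. IRF1 is induced by interferons and activates genes that IRF2 competes for as a repressor. IRF3, IRF5 and IRF7 are activated after nucleic acid sensing, and IRF9 is part of ISGF3, the complex that answers type I interferon. In CD8+ T cells IRF4 is known for expansion and effector differentiation, and IRF4 is required for differentiation of IL-17-producing T cells.

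Promoter sequence is shown for Irf8, which carries the largest difference of the family, and for Irf5, Irf1 and Irf2, the other members past the looser threshold of the study between DMF and Ctrl (p adj, adjusted over all genes tested, under 0.1, where the stricter threshold is p adj under 0.01 with a log2FC of at least 0.75 in size). Each line holds the 250 bases before the RefSeq start on the plus strand of GRCm38.p6, at chr8:120736108-120736357 for Irf8, chr6:29526375-29526624 for Irf5, chr11:53769764-53770013 for Irf1 and chr8:46739495-46739744 for Irf2. Capitals mark matches to a motif of the list searched.
Irf8: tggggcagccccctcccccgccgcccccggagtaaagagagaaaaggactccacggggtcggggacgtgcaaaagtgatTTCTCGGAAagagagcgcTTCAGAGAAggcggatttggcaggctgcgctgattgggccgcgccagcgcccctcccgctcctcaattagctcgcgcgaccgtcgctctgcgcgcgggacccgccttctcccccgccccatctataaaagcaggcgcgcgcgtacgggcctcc
Irf5: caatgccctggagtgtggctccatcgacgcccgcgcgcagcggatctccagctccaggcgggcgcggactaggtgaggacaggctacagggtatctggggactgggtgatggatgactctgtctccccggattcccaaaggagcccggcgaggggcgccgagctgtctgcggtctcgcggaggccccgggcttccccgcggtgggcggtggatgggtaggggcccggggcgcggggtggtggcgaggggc
Irf1: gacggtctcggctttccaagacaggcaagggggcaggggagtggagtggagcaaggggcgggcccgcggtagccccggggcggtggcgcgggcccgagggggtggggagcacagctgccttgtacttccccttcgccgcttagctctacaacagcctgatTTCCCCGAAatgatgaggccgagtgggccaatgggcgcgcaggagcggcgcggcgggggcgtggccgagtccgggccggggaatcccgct
Irf2: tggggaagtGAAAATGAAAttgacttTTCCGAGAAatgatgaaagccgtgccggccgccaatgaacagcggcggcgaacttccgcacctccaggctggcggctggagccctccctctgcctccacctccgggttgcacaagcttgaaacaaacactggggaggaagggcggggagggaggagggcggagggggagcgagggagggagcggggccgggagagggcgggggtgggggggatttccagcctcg

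The motifs were searched on both strands as spelled here, GAAA, any 2 bases and GAAA for the interferon-stimulated response element (ISRE, bound by IRFs and ISGF3), TTCNNNGAA for the gamma-activated site (GAS, bound by STAT dimers), TGANTCA for AP-1, TGACNNNGC for the antioxidant response element (ARE, bound by NRF2), GTAAACA for FOXO and GGGA, any base and TTTCC for NF-κB. All 8 members were matched in the RefSeq promoter table, with 11 windows since Irf1, Irf8 and Irf9 each have an additional start. The first Irf8 window held 2 GAS matches, TTCTCGGAA at 171 to 163 bases and TTCAGAGAA at 153 to 145 bases before the start. The Irf1 window held TTCCCCGAA at 90 to 82 bases, and the Irf2 window held TTCCGAGAA at 224 to 216 bases beside the only ISRE match of the family, GAAAATGAAA at 241 to 232 bases before the start. A GAS match of this spelling was present in 7.02% and an ISRE match in 2.98% of the 32851 promoter windows of the same length, and matches were found in 3 and 1 of the 11 member windows. The ARE spelling, present in 10.2% of all windows, was matched in the windows of Irf7 (GCAGGGTCA, reverse strand) and of the second Irf8 start (TGACTCCGC, 25 to 17 bases before it). AP-1 (6.75% of all windows), FOXO (3.17%) and NF-κB (0.356%) matches were found in 0 member windows. The matches did not overlap each other, and they describe letters in these windows only. All 11 member windows lay above the median GC content of all windows (52.4%), from 53.6% in the second Irf9 window to 74.4% in the second Irf1 window.

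Libraries held 7671772 to 14511926 reads in genes (median 11152111), with the lowest depth in Ctrl replicate 3. The cells carried the transcripts of their label: 9 CD8+ T cell markers such as Cd3e and Cd8a summed to normalized counts of 43681 to 52079.7 per library, Il17f had a mean of 3522 ± 787 (SD, n = 3) and Il17a of 397 ± 119 in Ctrl, and Cd4 was near 0 (mean of 1.97 in Ctrl). Ctrl replicate 3 stood apart in macrophage markers, with a sum of 289 over 7 genes against 56.1 to 89.1 in the other 8 libraries, and held Lyz2 at 119 and Csf1r at 58.3. Values without it are therefore given where they matter. Replicate 1 of each group formed preparation batch 1 and replicates 2 and 3 formed batch 2, and libraries sharing a replicate number departed from their group means in the same way, so that differences are also given per batch. Nothing in the labels says that replicates came from separate mice, and p-values then measure only the spread between these libraries.

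Irf8 (chr8:120736358-120756694, plus strand, GRCm38) was higher with DMF in every library. Its normalized counts were 2357, 2789.6 and 3696 in Ctrl, 7848, 6054 and 9518 with DMF, and 2371, 2555 and 3818 in DMF + GSH. The lowest DMF library lay above the highest library of either other group, and the ranges of Ctrl and DMF + GSH overlapped. DMF changed Irf8 by a log2FC of 1.41 (SE 0.202), a 2.65-fold higher level, which placed it at rank 49 from the highest among the 11599 genes tested. Adding GSH to DMF gave a log2FC of −1.43 (SE 0.202) relative to DMF, and DMF + GSH differed from Ctrl by −0.02 (SE 0.202). The difference between DMF and Ctrl was 1.73 in batch 1 and 1.24 on average in batch 2, and −1.73 and −1.28 between DMF + GSH and DMF. Without Ctrl replicate 3 the log2FC of DMF against Ctrl was 1.55. In bulk RNA, more cells of one kind and more RNA per cell cannot be told apart.

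**Figure D1:**
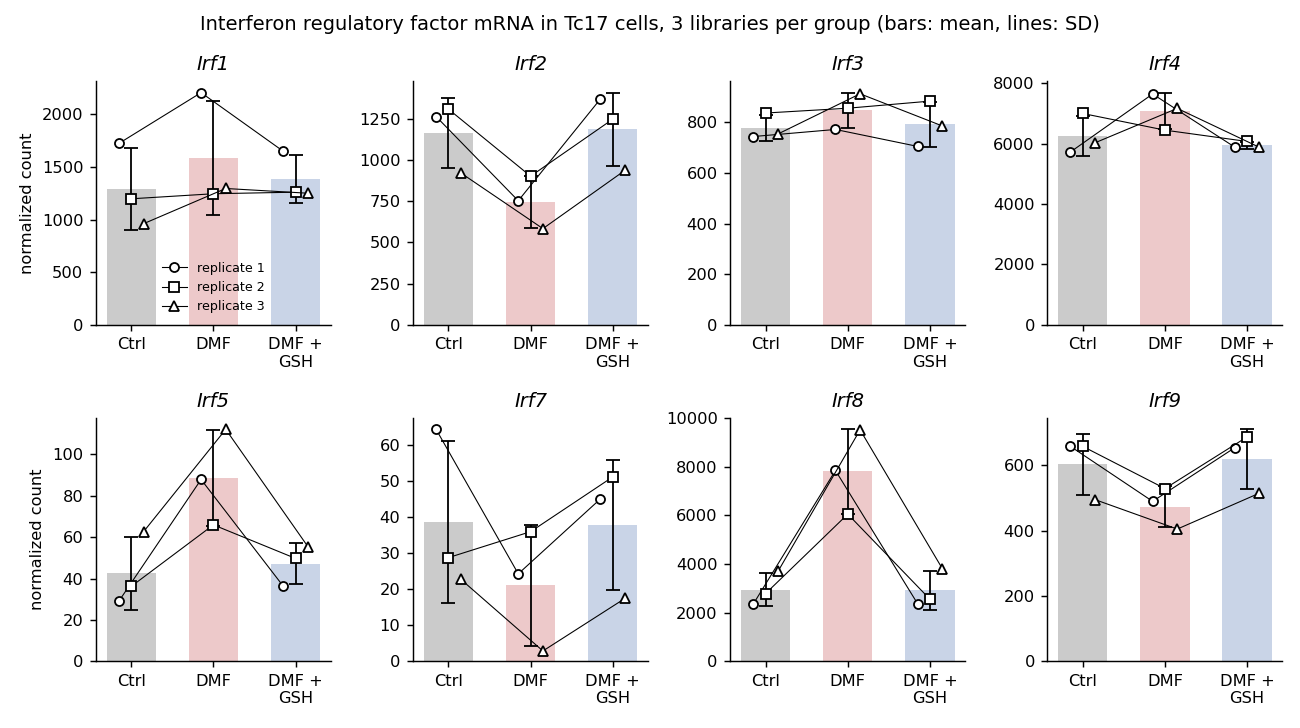
Normalized count of each IRF gene (vertical axes, linear from 0) in Ctrl, DMF and DMF + GSH. Bars give the mean, vertical lines the SD of 3 libraries, and joined symbols the libraries of the same replicate number. Irf8 stood at 6054 to 9518 with DMF and at 2357 to 3818 in the other groups, Irf5 was the other member with all DMF libraries above both groups, and Irf2 had all DMF libraries below both groups.

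Irf8 and Irf4 are also made by B cells, dendritic cells and macrophages, and their markers were measured beside them. Of 8 dendritic cell markers, 6 had means under 10 in Ctrl and 7 with DMF, with Clec9a, Siglech and Cd209a at 0 in every DMF library. The sum of the 8 markers was 69.7 to 112 in Ctrl, 29.6 to 33.9 with DMF and 50.6 to 107 with DMF + GSH. Xcr1, a chemokine receptor of cross-presenting dendritic cells, made up most of the sum in the Ctrl and DMF + GSH libraries but not in the DMF libraries, and fell from 64.9 ± 8.19 to 14.9 ± 1.39 (log2FC −2.05, SE 0.256, p adj = 0.00297). B cell markers summed to 72.5 to 100.3 in Ctrl and 60.0 to 83.0 with DMF, over 8 genes, with Cd79b the only one at a mean of 10 or more, with Ms4a1 and Cd22 at 0 in every DMF library. Macrophage markers summed to 56.1 to 71.1 with DMF. Neutrophil markers reached at most 12.5 in any library. The DMF libraries held lower sums of dendritic cell, macrophage and neutrophil markers than any Ctrl library. Their B cell sums overlapped those of Ctrl. The dendritic cell difference came largely from Xcr1, and Zbtb46 alone had a higher mean with DMF (7.94 against 5.76 in Ctrl). For macrophage markers the highest DMF sum of 71.1 lay just below the lowest Ctrl sum of 71.7. All 6 neutrophil markers had means under 10 in each group. Whether cells of these kinds had a part in the Irf8 values was not tested. Foxp3, the regulatory T cell factor, moved in the same direction as Irf8, with means of 756 in Ctrl, 1938 with DMF (log2FC 1.29, p adj = 0.0221, and 1.06e-07 with the replicate block, past the stricter threshold) and 659 in DMF + GSH. The sum of 4 Tc17 markers moved the opposite way, from 2961 to 4623 over the Ctrl libraries to 771 to 1997 with DMF. Whether a shift in the kinds of T cells had a part in the IRF values was not tested.

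Irf4 (chr13:30749226-30766976, plus strand) was the most abundant member per length of its exon union and differed little between groups. Its normalized counts were 5724, 6999 and 6029 in Ctrl, 7645, 6447 and 7168 with DMF, and 5884, 6072 and 5878 in DMF + GSH. The DMF and Ctrl libraries overlapped, with the second replicate lower under DMF and the others higher, and all DMF libraries lay above those of DMF + GSH. The log2FC was 0.18 (SE 0.0912) for DMF against Ctrl, a 1.14-fold level, −0.25 (SE 0.0912) for DMF + GSH against DMF, and −0.07 (SE 0.0912) for DMF + GSH against Ctrl. Between DMF and Ctrl the difference was 0.42 in batch 1 and 0.07 on average in batch 2.

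Within a library, the ratio of Irf8 to Irf4 was higher with DMF. Per length, in RPKM (reads per kilobase of exon, scaled to the depth of the library), Irf8 over Irf4 was −1.81, −1.85 and −1.23 on the log2 scale in Ctrl (mean −1.63 ± 0.346, SD), −0.49, −0.62 and −0.12 with DMF (−0.41 ± 0.260) and −1.84, −1.77 and −1.15 in DMF + GSH (−1.59 ± 0.381). All DMF ratios lay above those of the other groups. Irf4 thus exceeded Irf8 in all 9 libraries when the union of exons was used as length. With the longest transcript instead, Irf8 stood above Irf4 in the DMF group (204 ± 42.1 against 135 ± 10.7) and below it in Ctrl (78.4 ± 17.7 against 121 ± 13.4). Their order in DMF, and whether they stood closer to equality there than in Ctrl, thus depends on the length taken.

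**Figure D2:**
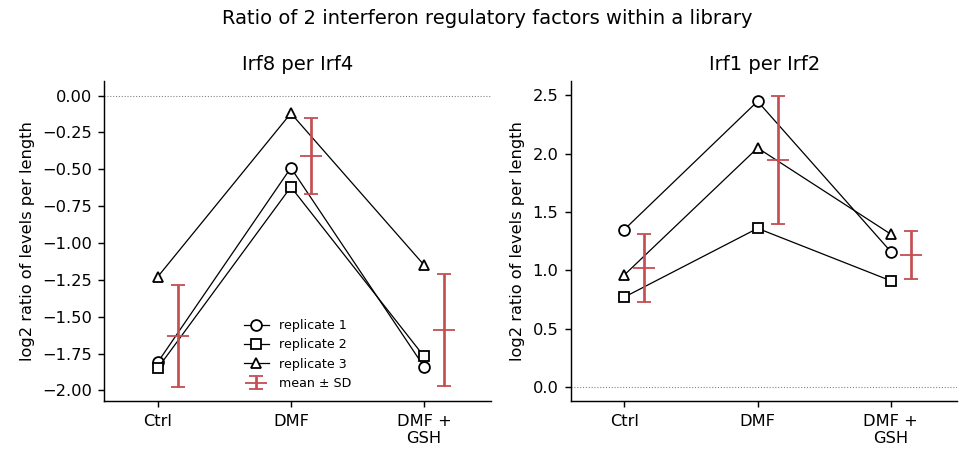
Log2 ratio of Irf8 to Irf4 (left) and of Irf1 to Irf2 (right) per length within each library (vertical axes, log2). Joined symbols are libraries of the same replicate number, and the red marks give mean ± SD of 3 libraries. Irf8 per Irf4 had a mean of −1.63 in Ctrl and −0.41 with DMF, and Irf1 per Irf2 had 1.02 and 1.95.

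Irf1 (chr11:53770014-53778374, plus strand), the interferon-induced activator, rose with DMF, past the looser but not the stricter threshold of the study. Its normalized counts were 1725, 1198 and 961 in Ctrl, 2208, 1246 and 1296 with DMF, and 1650.3, 1261 and 1251 in DMF + GSH. Replicate 1 was the highest library in each group, and the groups overlapped. The log2FC of DMF against Ctrl was 0.28 (SE 0.103, p adj = 0.0666), with DMF higher in all 3 replicate numbers (0.36, 0.06 and 0.43). It was lost without Ctrl replicate 1, Ctrl replicate 3, DMF replicate 1 or DMF replicate 3 (p adj = 0.142, 0.174, 0.309 and 0.145), without a batch term (p adj = 0.415) and with quantile scaling (p adj = 0.104). DMF + GSH differed from DMF by −0.15 (p adj = 0.309) and from Ctrl by 0.13 (p adj = 1).

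Irf2 (chr8:46739732-46847458, plus strand), which represses many of the genes that IRF1 activates, fell with DMF. Normalized counts of 1263, 1308 and 921 were found in Ctrl, 752, 901 and 583 with DMF, and 1369.8, 1247 and 937 in DMF + GSH. Every DMF library lay below every library of Ctrl and of DMF + GSH, whose ranges overlapped. The log2FC was −0.65 (SE 0.181, p adj = 0.0264) for DMF against Ctrl and 0.67 (SE 0.181, p adj = 0.0287) for DMF + GSH against DMF, lower and higher in 3 of 3 replicate numbers, and 0.02 (p adj = 1) for DMF + GSH against Ctrl. The first call was lost without Ctrl replicate 1, Ctrl replicate 2, DMF replicate 1 or DMF replicate 3 (p adj = 0.103, 0.106, 0.137 and 0.112), and the second without DMF replicate 1, DMF replicate 3, DMF + GSH replicate 1 or DMF + GSH replicate 2 (p adj = 0.152, 0.121, 0.148 and 0.111). Without DMF replicate 2 both passed the stricter threshold (p adj = 0.00542 and 0.00662). With the replicate number as a block both remained past the looser threshold whichever library was left out. The log2 ratio of Irf1 to Irf2 per length was 1.02 ± 0.294 in Ctrl, 1.95 ± 0.549 with DMF and 1.13 ± 0.203 with DMF + GSH, and the DMF range of 1.36 to 2.45 reached just above the highest Ctrl library at 1.35.

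Irf5 (chr6:29526625-29541871, plus strand), a factor of Toll-like receptor signalling in myeloid and B cells, was lowly expressed and rose with DMF. Its normalized counts were 29.1, 36.2 and 62.6 in Ctrl, resting on 28, 39 and 44 reads, 87.8, 65.9 and 112 with DMF (83, 77 and 116 reads), and 36.3, 49.7 and 55.4 in DMF + GSH. All DMF libraries lay above all others, the lowest of them by a small margin. The log2FC was 1.08 (SE 0.274, p adj = 0.0187) for DMF against Ctrl and −0.89 (SE 0.274, p adj = 0.0442) for DMF + GSH against DMF, in the same direction in 3 of 3 replicate numbers, and 0.19 (p adj = 1) for DMF + GSH against Ctrl. With the replicate block both differences passed the stricter threshold (p adj = 2.82e-04 and 0.00185), the second not without DMF replicate 1, DMF replicate 3, DMF + GSH replicate 1 or DMF + GSH replicate 3 (p adj = 0.0318, 0.0103, 0.0134 and 0.0208). Without the block, the first also passed it without Ctrl replicate 3 or DMF replicate 2 (p adj = 0.00658 and 0.00555) and missed the looser threshold without Ctrl replicate 1 or DMF replicate 1 (p adj = 0.10 and 0.12). The second missed it without DMF replicate 1, DMF replicate 3, DMF + GSH replicate 1 or DMF + GSH replicate 2 (p adj = 0.228, 0.167, 0.173 and 0.130). Irf5 lies opposite Tnpo3, whose normalized counts of 1956 in Ctrl and 2272 with DMF (log2FC 0.21, p adj = 0.184) were many times higher. The sources used here do not give whether the authors counted by strand, so reads of Tnpo3 in Irf5 cannot be told apart.

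Irf3 (chr7:44997648-45002848, plus strand), which is present in resting cells and activated by phosphorylation, did not pass a threshold in any comparison. Normalized counts were 744, 837 and 754 in Ctrl, 772, 856 and 913 with DMF, and 705, 884 and 786 in DMF + GSH, in overlapping ranges. The log2FC was 0.12 (SE 0.0793, p adj = 0.276) for DMF against Ctrl and −0.10 (p adj = 0.383) for DMF + GSH against DMF.

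Irf7 (chr7:141262706-141266481, minus strand), the amplifier of type I interferon production that is itself interferon-induced, was the least abundant member. Its normalized counts were 64.4, 28.8 and 22.8 in Ctrl, 24.3, 36.0 and 2.90 with DMF, and 45.1, 51.2 and 17.5 in DMF + GSH. The value of 2.90 rests on 3 reads, no more than the floor that a count of 0 allows, and the groups overlapped. The log2FC of DMF against Ctrl was −1.22 (SE 0.697, p adj = 0.211) and that of DMF + GSH against DMF 1.2 (SE 0.697, p adj = 0.232), and with the replicate block p adj was 0.0128 and 0.0156. Replicate 2 went the other way between DMF and Ctrl (0.31, against −1.37 and −2.61). Without DMF replicate 3 the values were −0.32 (p adj = 0.696) and 0.30 (p adj = 0.735), and without DMF replicate 2 they were −2.09 (p adj = 0.0169) and 2.07 (p adj = 0.0205). DMF + GSH exceeded DMF in 3 of 3 replicate numbers (0.86, 0.50 and 2.24). With the block and 1 library left out, the looser threshold was passed in 7 of 9 fits between DMF and Ctrl and in 8 of 9 between DMF + GSH and DMF, and missed in both without DMF replicate 3 (−0.61, p adj = 0.168, and 0.60, p adj = 0.190) and in the first also without Ctrl replicate 3 (p adj = 0.133). The call of Irf7 thus depends on the block and on which library is left out.

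Irf9 (chr14:55603571-55610030, plus strand), the DNA-binding subunit of ISGF3, was lower with DMF in each replicate number by a small amount. Ctrl libraries held normalized counts of 658, 658 and 495, DMF libraries 489.8, 529 and 405, and DMF + GSH libraries 654, 687 and 515. Replicate 3 was the lowest in each group, and through it the ranges overlapped. The log2FC of DMF against Ctrl was −0.34 (SE 0.146, p adj = 0.105), just outside the looser threshold, and with the replicate number as a block p adj became 5.76e-04. It passed narrowly with quantile scaling, DESeq2 or voom (p adj = 0.087, 0.0828 and 0.0948). It also passed without Ctrl replicate 3, DMF replicate 2, DMF + GSH replicate 2 or DMF + GSH replicate 3 (p adj = 0.0355, 0.0411, 0.0894 and 0.0812). DMF + GSH exceeded DMF by 0.38 (SE 0.146, p adj = 0.0855), which was lost without Ctrl replicate 1, DMF replicate 1, DMF replicate 3, DMF + GSH replicate 1 or DMF + GSH replicate 2 (p adj = 0.123, 0.270, 0.282, 0.226 and 0.288) and with no minimum on the mean (p adj = 0.106). Irf9 shares its strand and part of its locus with Rnf31 (993 in Ctrl and 931 with DMF, log2FC −0.10, p adj = 0.329), and reads in the shared part could be counted for either gene. Irf1, Irf2, Irf3 and Irf7 overlap genes of the opposite strand (Gm17334, Gm31172 with Gm45479 and Gm45481, Bcl2l12, and Phrf1), so the same limit as for Irf5 applies to reads in the shared stretches, whereas Irf4 overlaps no annotated gene. Irf8 overlaps Gm20388 on its own strand, which had a count of 0 in every group.

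**Figure D3:**
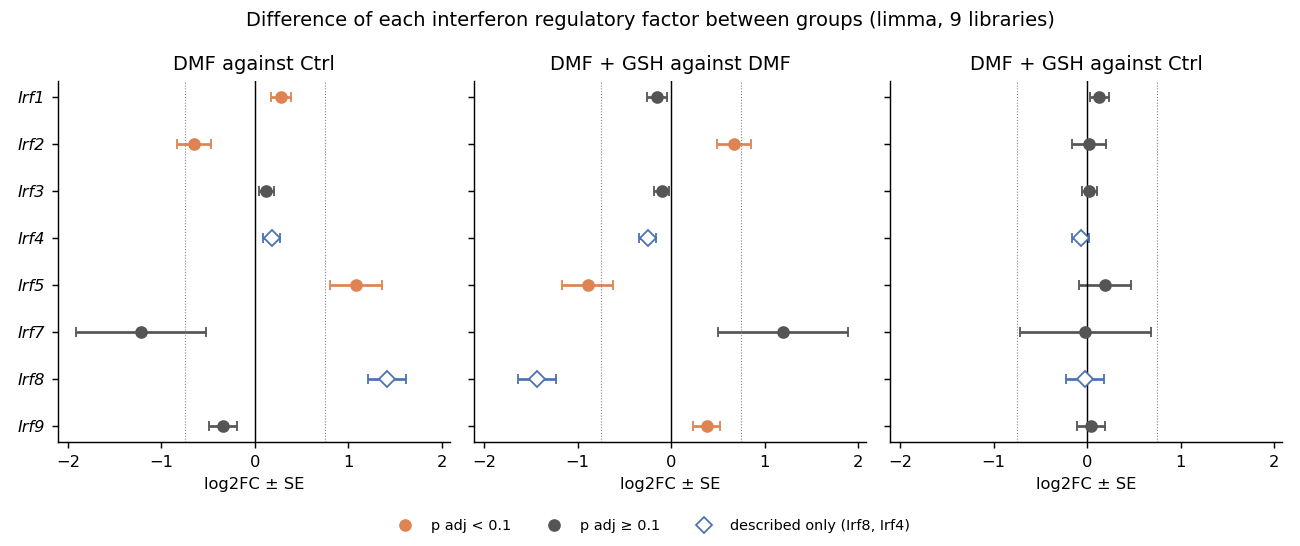
Log2FC of each IRF gene (horizontal axes, log2 of normalized count + 1) with its SE in the 3 comparisons, from limma over 9 libraries. Colours separate members inside and outside the looser threshold, open diamonds mark Irf8 and Irf4, which were described without a test, and dotted lines stand at ±0.75. Irf8 lay at 1.41 and −1.43 and all members near 0 between DMF + GSH and Ctrl.

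Counted over the family, 5 members had a positive and 3 a negative log2FC between DMF and Ctrl. The median size of the difference without its sign was 0.496 over the 8 members and 0.234 over all 11599 genes, with Irf8 and Irf4 among them selected on their values. By the stricter threshold 1 of 8 members was called, Irf8 itself, where 2.89% of all genes were, and nothing is read from this count. By the looser threshold 4 of 8 were called, where 38.2% of all genes were. Nothing is read from Irf8 among them. Of the 6 members other than Irf8 and Irf4, Irf1 and Irf5 were higher, where 19.9% of all genes were called higher, and Irf2 was lower, where 18.3% were called lower, and these 3 are a share near that of all genes. With the replicate block 2 of 8 passed the stricter (6.80% of all genes) and 7 of 8 the looser threshold (52.0%, with 27.2% higher and 24.8% lower), with 5 of the 6. The ranges of DMF and Ctrl did not overlap for 3 of 8 members and for 41.3% of all genes.

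Between DMF + GSH and DMF, 1 of 8 members passed the stricter threshold, again Irf8, where 0.543% of all genes did. The looser threshold was passed by 5 of 8, where 33.3% of all genes did, and nothing is read from Irf8 and Irf4 among them, since they were selected on their values. Of the 6 other members 3 passed, Irf2 and Irf9 higher (15.7% of all genes) and Irf5 lower (17.6%). With the replicate block 2 of 8 passed the stricter (5.69%) and 6 of 8 the looser threshold (48.7%). Ranges did not overlap for 4 of 8 members and for 38.3% of all genes. This comparison and that of DMF with Ctrl share the DMF libraries, so that the opposite signs are not separate evidence.

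Between DMF + GSH and Ctrl, 0 of 8 members and 0% of all genes passed the stricter or the looser threshold by limma. No member and 222 of all genes had an unadjusted p below 0.05, and edgeR, DESeq2 and voom likewise called 0 genes at either threshold. With the replicate block 1 gene passed the stricter and 12 the looser threshold, none of them a member. The log2FCs of the members lay between −0.07 (Irf4) and 0.19 (Irf5), and the smallest unadjusted p of the 6 tested members was 0.236 (Irf1). Ranges did not overlap for 0 of 8 members and for 4.47% of all genes. A p that misses the threshold does not show that the levels were equal: for Irf7 the SE of 0.697 leaves large differences possible, whereas for Irf3 it was 0.0793.

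Per length of the exon union, the 8 members spanned a wide range and had the same order of means in each group, which for Irf8 and Irf4 under DMF turns with the longest transcript, as given above. The order ran Irf4, Irf8, Irf1, Irf3, Irf2, Irf9, Irf5 and Irf7 by the mean RPKM. In Ctrl, Irf4 had 118 ± 13.0 and Irf8 38.6 ± 8.70, followed by Irf1 with 30.1 ± 9.17, Irf3 with 20.9 ± 1.47, Irf2 with 14.5 ± 2.73, Irf9 with 10.4 ± 1.67, Irf5 with 1.35 ± 0.550 and Irf7 with 0.946 ± 0.553. Neighbours whose libraries overlapped there were Irf8 and Irf1, Irf1 and Irf3, and Irf5 and Irf7. With DMF, Irf4 had 131 ± 10.4 and Irf8 100.3 ± 20.7, which no longer overlapped Irf1 (36.2 ± 12.5) and approached Irf4 (79.1 to 120.4 against 121 to 142 over the libraries). Irf2 (9.17 ± 2.10) and Irf9 (8.01 ± 1.2) then overlapped, and Irf5 (2.76 ± 0.679) stood clear of Irf7 (0.511 ± 0.41). With DMF + GSH, Irf4 had 112 ± 2.25, Irf8 38.3 ± 10.1 and Irf1 32.4 ± 5.46, with Irf8 overlapping Irf1 as in Ctrl.

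**Figure D4:**
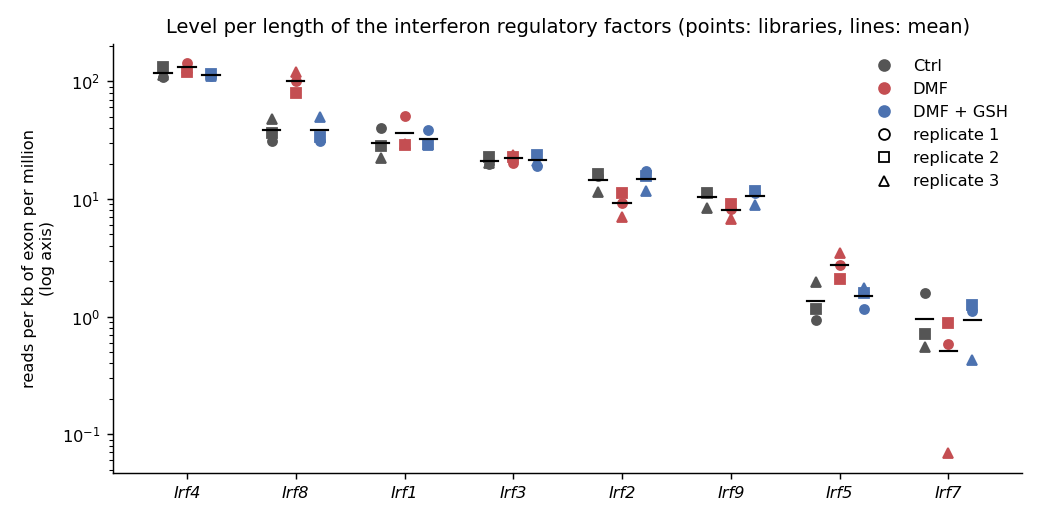
Level per length of the 8 IRF genes (vertical axis, RPKM, logarithmic) in the 9 libraries. Symbols give the replicate number, colours the group and black lines the group mean. Irf4 lay above 100 in all groups, Irf8 moved from 38.6 to 100.3 with DMF, and a single DMF library of Irf7 lay far below the others.

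The genes most like Irf8 over the 9 libraries, by Pearson's r of log2 normalized counts among all genes tested, were Nop2 (r = 0.998), Timm10 (0.996) and Dhx33 (0.995). Nop2, a nucleolar rRNA methyltransferase, had 1470.1 ± 276 in Ctrl, 2682 ± 358 with DMF and 1467 ± 252 with DMF + GSH. Timm10, a mitochondrial import chaperone, had 108 ± 11.7, 205 ± 36.4 and 105 ± 20.0, and the RNA helicase Dhx33 had 566 ± 71.3, 923 ± 116 and 564 ± 61.9. Like Irf8 they had their highest mean with DMF and near-equal means in the other groups. Irf4 was most like Wdr25 (r = 0.967), Wdr59 (0.934), a subunit of the GATOR2 complex, and Ube2w (0.927), a ubiquitin-conjugating enzyme. Wdr25 had 72 ± 8.88, 82.3 ± 5.36 and 65.9 ± 1.70 in Ctrl, DMF and DMF + GSH. Within the family, Irf8 had an r of 0.936 with Irf5 and −0.956 with Irf2. These values describe 9 libraries in 3 groups, which share the group differences, and carry no test.

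The genes around the IRFs were described by lists from textbook knowledge, each beside the median log2FC of all genes (0.01 between DMF and Ctrl) and the background shares given above. Counts with the replicate block are added where they differ. Of 9 interferon receptor and JAK-STAT genes, all 9 had a negative log2FC between DMF and Ctrl, with a median of −0.36, and 7 fell at the looser threshold. Ifngr1, the ligand-binding chain of the IFN-γ receptor, fell from 2285 ± 144 to 1291 ± 298 (log2FC −0.84, SE 0.145, p adj = 0.00649). Its partner chain Ifngr2 fell from 325 ± 47.7 to 226 ± 18.1 (−0.51, p adj = 0.0187) and the receptor kinase Jak2 from 2479 ± 191 to 1786 ± 129.6 (−0.47, p adj = 0.00911). With DMF + GSH these stood at 2096 ± 225, 327 ± 32.1 and 2472 ± 267, and the list had a median of 0.36 relative to DMF and 0.00 relative to Ctrl.

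Nucleic acid sensing genes upstream of IRF3, IRF5 and IRF7 were split, with 7 of 14 higher and 7 lower, 1 rising and 4 falling at the looser threshold (3 and 5 with the replicate block), and a median of −0.01. Ddx58, the RNA sensor RIG-I, fell from 309.5 ± 124 to 168 ± 42.5 (log2FC −0.83, p adj = 0.0284), Ikbke, a kinase of IRF3 and IRF7, from 1065 ± 249 to 652 ± 75.0 (−0.69, p adj = 0.0146), and the adaptor Ticam1 from 285 ± 27.6 to 214 ± 4.85 (−0.41, p adj = 0.0212). Of 15 T cell receptor signalling genes upstream of IRF4, 3 rose and 6 fell at the looser threshold (3 and 7 with the block), with a median of −0.10. The kinase Prkcq fell from 2935 ± 367 to 1941 ± 75.8 (−0.59, p adj = 0.00865) and the receptor-proximal kinase Zap70 from 4529.6 ± 347 to 3334 ± 392 (−0.45, p adj = 0.0132).

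Among 11 tested partners of IRF4 and IRF8, 1 rose and 4 fell at the looser threshold (2 and 4 with the block), with a median of −0.11. Batf3, an AP-1 factor that acts with IRF8 in dendritic cells and with IRF4 in T cells, had normalized counts of 6.24, 14.9 and 14.2 in Ctrl, 148, 93.3 and 145 with DMF, and 12.1, 11.1 and 33.1 in DMF + GSH. Its log2FC was 3.40 (SE 0.417, p adj = 0.00278) for DMF against Ctrl and −2.86 (p adj = 0.00809) for DMF + GSH against DMF, with no overlap between DMF and the other groups. Bcl6, the transcriptional repressor known for follicular helper T cells, fell from 324 ± 93.3 to 118 ± 77.3 (−1.60, p adj = 0.0174), and Ikzf3, the Ikaros family factor Aiolos, from 4477 ± 139.7 to 3377 ± 49.0 (−0.41, p adj = 0.00661). Of 13 cofactors and regulators of IRF proteins, 3 rose and 3 fell at the looser threshold (4 and 5 with the block), with a median of 0.05. The acetyltransferase Ep300 fell from 3065 ± 133 to 2024 ± 41.8 (−0.60, p adj = 0.00248), whereas Fkbp4, an immunophilin that binds IRF4, rose from 2737 ± 601 to 4278 ± 557 (0.66, p adj = 0.0206).

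**Figure D5:**
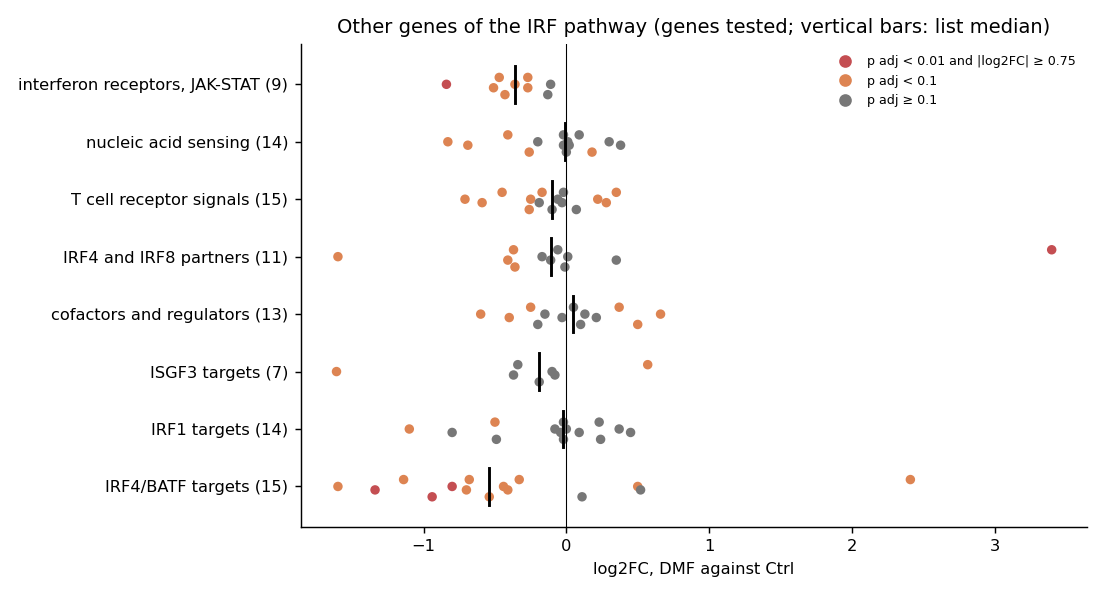
Log2FC between DMF and Ctrl (horizontal axis) of the genes tested in 8 lists around the IRFs, with the number tested in brackets. Points are genes, coloured by the threshold they passed, and black bars are list medians. All 9 interferon receptor and JAK-STAT genes lay below 0, and Batf3 stood apart at 3.40.

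Of the target genes, 7 of 17 ISGF3 targets passed the filter on low values, of which 1 rose and 1 fell at the looser threshold (1 and 3 with the block), with a median of −0.19. Bst2, the antiviral protein tetherin, rose from 464 ± 69.8 to 688 ± 57.1 (log2FC 0.57, p adj = 0.00977), and Oas2, an oligoadenylate synthetase, fell from 26.9 ± 14.5 to 7.73 ± 3.03 (−1.61, p adj = 0.0253). Oas3 had 144 ± 47.5 and 114 ± 44.9 (−0.37, p adj = 0.368, and 0.0673 with the replicate block). Of 14 tested IRF1 targets, 0 rose and 2 fell at the looser threshold, whereas with the replicate block 4 rose and 4 fell, and the median was −0.02. The guanylate-binding proteins Gbp2 and Gbp3 fell from 4559.6 ± 701 to 2234 ± 941 (−1.10, p adj = 0.0145) and from 292 ± 36.2 to 211 ± 58.9 (−0.50, p adj = 0.0853), and Casp1 had 20.3 ± 13.6 and 10.5 ± 6.20 (−0.80, p adj = 0.272, and 0.0724 with the replicate block).

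Genes bound by IRF4 with BATF in T cells had a median log2FC of −0.54 between DMF and Ctrl, with 2 rising and 11 falling at the looser threshold among 15. Id2, an inhibitor of E proteins, fell from 1202 ± 155 to 623 ± 60.2 (−0.94, SE 0.115, p adj = 0.00277), the cytokine gene Il21 from 437 ± 97.1 to 178 ± 64.4 (−1.34, SE 0.157, p adj = 0.00248) and the inhibitory receptor Ctla4 from 6571 ± 1069 to 3752 ± 181 (−0.80, SE 0.104, p adj = 0.00336). Prdm1, the repressor Blimp-1, rose from 4.59 ± 2.39 to 29.1 ± 15.8 (2.41, p adj = 0.0161). Its Ctrl values of 6.24, 1.86 and 5.69 rest on few reads, since 3 reads are worth 3.12, 2.79 and 4.27 there. The size of the Prdm1 rise is therefore uncertain. Tcf7, the factor TCF-1 of naive and memory T cells, fell from 10925 ± 3366 to 4868 ± 1163 (−1.14, p adj = 0.0163). With DMF + GSH, Id2, Il21, Ctla4 and Prdm1 stood at 1159 ± 119, 392 ± 76.6, 6089 ± 711 and 7.37 ± 4.95, and the list median was 0.39 relative to DMF and −0.08 relative to Ctrl, where 0 of the 15 passed. With the replicate block Ddx58, Bcl6, Oas2, Gbp2, Prdm1 and Tcf7 of these 8 lists also passed the stricter threshold (p adj = 8.77e-06, 9.32e-08, 0.00237, 1.37e-07, 9.07e-05 and 6.46e-10). The lists were drawn up with results of these libraries known, so their counts are a description.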

How the data were processed

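The 9 murine libraries (3 of Ctrl, 3 of DMF and 3 of DMF + GSH) were grouped by their sample labels. The authors aligned single 50 bp reads to GRCm38 with STAR 2.4.0b and counted reads per gene of Ensembl release 76 with featureCounts. The deposited values are normalized counts, a signal made by dividing each read count by a size factor of its library. Dividing the values of a library by the worth of 1 read gave whole reads for 100% of them (tolerance 0.01). The authors also deposited a log2 fold change, its score and its p-value, and none of these were used.

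The family (Irf8 and Irf4 on their values, the other 6 by name) and the gene lists were chosen with earlier results of these data known. limma 3.58.1 (R 4.3.3) was fitted with a trend to log2(normalized count + 1) in all 9 libraries, with terms for group and preparation batch, for 11599 genes whose mean was 10 or more. Benjamini-Hochberg adjustment ran over these genes (p adj). Calls used the study's thresholds, p adj under 0.01 with a log2FC of at least 0.75 in size, and p adj under 0.1. The genes named were all members, the 3 genes most correlated with Irf8 and with Irf4, and of each list the genes past the stricter threshold and up to 3 others with the largest log2FC in size. Some genes that this rule names are not reported here.

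The replicate numbers paired the samples: deviations from the group means correlated with 0.447 to 0.578 in the 9 pairs of libraries with the same number and with −0.471 to −0.0621 in the 18 other pairs. Values from a model holding this number as a replicate block are therefore given where they alter a call. They are given for members other than Irf8 and Irf4, and for named genes and list counts between DMF and Ctrl. Levels per length (RPKM) used the recovered reads and the union of exons of GENCODE vM21 (GRCm38). Promoter sequences come from RefSeq (GRCm38.p6).

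Tested on simulated counts with 200 of 11511 genes changed by 1.5 (log2) between DMF and Ctrl, limma recovered 85.5% with 0 false calls at the stricter threshold. The simulated counts held no batch or replicate effect. These figures therefore do not cover smaller differences or calls at the looser threshold. Alternatives were pseudocounts of 0.5 and 4, no minimum mean or one of 50, TMM and quantile scaling, the model without batch, the model with the block, a fit of only the 6 libraries compared, robust variance moderation, edgeR 4.0.16, DESeq2 1.42.0 and voom on recovered reads, and each library left out, with and without the block. Software also included Matplotlib 3.10.9, NumPy 2.4.6 and pandas 2.3.3 under Python 3.11.15.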

Additional observations from a re-analysis of the deposited data

How the results depend on the processing

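The direction of every member between DMF and Ctrl and between DMF + GSH and DMF was the same under all alternatives tried. Irf8 ranged from 1.25 to 1.64 and from −1.66 to −1.27. The counts that follow include Irf8, which was selected on its values, and are no support for it. Between DMF and Ctrl, 1 member passed the stricter threshold in the fit reported, 2 with the replicate block or with DESeq2 (Irf5 joining Irf8), and 0 with only the 6 libraries compared. Leaving out 1 library gave 0 to 3, with 0 without Ctrl replicate 1, Ctrl replicate 2, DMF replicate 1, DMF replicate 3 or DMF + GSH replicate 1, where Irf8 had a log2FC of 1.25 to 1.41, and with the block 2 to 3. Between DMF + GSH and DMF, 1 passed in the fit reported, 2 with the replicate block, 0 without a batch term and 0 with only the 6 libraries compared. Leaving out 1 library gave 0 to 2, with 0 without Ctrl replicate 1, DMF replicate 1, DMF replicate 3, DMF + GSH replicate 1 or DMF + GSH replicate 2, and with the block 1 to 4. Fewer samples leave fewer residual degrees of freedom, and the cause of the other changes was not tested. Between DMF + GSH and Ctrl 0 members passed under every alternative, and the sign of small differences turned in 27 cases: Irf7 (−0.02) was 0.01 with quantile scaling, 0.06 with edgeR and 0.07 with DESeq2, and with 1 library left out, with or without the block, values ranged from −0.11 to 0.16 for Irf2, −0.04 to 0.06 for Irf3, −0.15 to 0.04 for Irf4, −0.61 to 0.41 for Irf7, −0.21 to 0.12 for Irf8 and −0.09 to 0.15 for Irf9. Depth limits Irf5 and Irf7, which with a minimum mean of 50 left Irf7 untested.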
